A study of Mus musculus with 15 samples.

Results

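A set of 10 genes, made of secondary and tertiary granule genes of neutrophils and their cytosolic companions, was followed over 5 groups of mouse myeloid cells: Fcnb, Camp, Ngp, Ltf, Lcn2, Mmp8, Mmp9, Retnlg, S100a8 and S100a9. They were taken by name, as probe sets listed with 1 gene symbol, and all 10 of the 10 were found, each with 1 probe set, among 22180 genes on the array. All 10 also passed the filter on dim genes that left 14822 genes for testing. Neutrophils make their granules in an order as they mature. Primary (azurophil) granules are filled at the promyelocyte stage, secondary (specific) granules at the myelocyte and metamyelocyte stages, and tertiary (gelatinase) granules in band and segmented cells, so granule transcripts mark the stage a cell has reached. The transcription factor C/EBP epsilon (Cebpe) is needed for the secondary granule genes. Here Fcnb, Camp, Ngp, Ltf and Lcn2 are called the early members, and Mmp8, Mmp9 and Retnlg the late ones. Late stands for the metamyelocyte to the mature cell, so the late members are not all tertiary granule genes. S100a8 and S100a9, the subunits of calprotectin, lie in the cytosol rather than in granules.

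RNA of 15 samples was measured on single-colour Affymetrix arrays, 3 per group. Cells of 4 groups came from spleens of C57Bl/6 background mice treated with G-CSF, which drives granulocyte production and mobilises progenitors, and were sorted as CD11b+CD34+ after removal of cells with CD4, CD8, Ly6G, B220 or Ter119. RB and GFW are title codes of 2 wild-type sets with the same labels, GFK marks cells of mice labelled iNOS knockout, and GFE marks wild-type cells after 3 days in Flt3 ligand and SCF. MDSC are Ly6C+CD11b+ suppressor cells grown from wild-type C57Bl/6 bone marrow with G-CSF, GM-CSF and IL-13. The labels give neither ages nor the number of mice, and nothing says that replicates are separate animals, so the p values rest on a spread among samples that may be technical only. GFW, GFE and GFK share the first part of the title, while RB and MDSC each have their own, so for these 2 groups the cells and whatever the title prefix stands for, which the labels do not say, cannot be told apart. The knockout label was checked on Nos2, the gene of iNOS. Its signal was 8.89 ± 0.05 (SD, n = 3) on GFK and 8.28 ± 0.17 on GFW, so this probe set shows no loss and goes against the label. Whether it reads the deleted part is not known here.

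Values are log2 RMA signals, on which 1 unit is a 2-fold difference, and levels are compared between samples of the same probe set, never between probe sets. A level is called near background where the group mean lies under the 40th percentile of the probe sets with 1 gene symbol. All percentiles of members are over these probe sets. A gene is called different at a Benjamini-Hochberg adjusted p under 0.05 in limma's moderated test over all 14822 genes. Among the genes of the sorting gate, Itgam (CD11b) stood at 11.67 ± 0.05 (SD, n = 3) on GFW, 11.38 ± 0.10 on RB, 10.32 ± 0.05 on MDSC and 7.94 ± 0.11 on GFE. Cd34 stood at 7.19 ± 0.20 on GFW, 5.92 ± 0.11 on RB, 6.88 ± 0.30 on MDSC and 11.28 ± 0.03 on GFE. RB, labelled as sorted for CD34, thus lay below MDSC (MDSC minus RB 0.96 log2, adjusted p = 9.65e-05). Ly6g, whose product was used to remove cells, stood at 12.19 ± 0.03 on GFW and 12.08 ± 0.05 on GFK, against 6.28 ± 0.10 on RB, 5.80 ± 0.03 on MDSC and 4.22 ± 0.12, near background, on GFE. Over all genes, 3831 were called higher and 3929 lower in RB than in GFW, 5198 and 4733 in GFE, 192 and 47 in GFK, and 4781 and 4444 in MDSC. With each array minus the median of all its probes the split was 5783 and 3286 for GFE and 5306 and 3094 for MDSC. With each array minus the median of the genes tested, a setting chosen after seeing the data, it was 3099 and 5635 for RB, 3891 and 7694 for GFE, and 3729 and 7401 for MDSC. Between MDSC and RB, 4057 genes were higher in MDSC and 3073 lower, or 3304 and 3999 in that last setting. Calls in either direction were made for 50.5% of genes between RB and GFK, 54.1% between RB and GFE and 60.9% between MDSC and GFK.

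Promoter windows of 9 members were found in the RefSeq table of GRCm38.p6, and Mmp9 was not matched. Each runs from 250 bases before to 50 bases after the start of the gene. The 6 shown are 4 early members (Fcnb and the chromosome 9 genes Camp, Ngp and Ltf) and the late members Mmp8 and Retnlg, so that genes of both stages can be set side by side. They are printed 5′ to 3′ on the strand of the gene. Capitals mark matches on either strand to TTGCNNAA, a short form of the C/EBP binding motif, or to GAGGAAG, a PU.1 motif. No 2 matches overlapped.
Fcnb (chr2:28084829-28085128, minus strand): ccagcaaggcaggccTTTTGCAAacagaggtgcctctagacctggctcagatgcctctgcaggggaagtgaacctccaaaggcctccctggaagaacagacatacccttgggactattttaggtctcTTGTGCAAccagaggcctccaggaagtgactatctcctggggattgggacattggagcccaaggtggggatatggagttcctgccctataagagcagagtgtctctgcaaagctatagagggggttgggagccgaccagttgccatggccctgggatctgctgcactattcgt
Camp (chr9:109849407-109849706, minus strand): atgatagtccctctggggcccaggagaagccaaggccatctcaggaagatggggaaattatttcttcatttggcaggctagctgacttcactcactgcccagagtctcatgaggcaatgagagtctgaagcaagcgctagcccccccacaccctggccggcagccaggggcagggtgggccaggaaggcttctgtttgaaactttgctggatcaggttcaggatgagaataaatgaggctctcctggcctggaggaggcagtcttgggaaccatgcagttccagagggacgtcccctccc
Ngp (chr9:110419558-110419857, plus strand): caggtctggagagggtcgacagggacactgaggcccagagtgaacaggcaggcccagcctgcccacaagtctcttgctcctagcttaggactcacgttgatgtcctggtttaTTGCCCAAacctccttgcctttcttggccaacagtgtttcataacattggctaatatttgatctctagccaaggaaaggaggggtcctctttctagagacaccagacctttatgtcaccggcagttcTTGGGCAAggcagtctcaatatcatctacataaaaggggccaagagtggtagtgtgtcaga
Ltf (chr9:111019042-111019341, plus strand): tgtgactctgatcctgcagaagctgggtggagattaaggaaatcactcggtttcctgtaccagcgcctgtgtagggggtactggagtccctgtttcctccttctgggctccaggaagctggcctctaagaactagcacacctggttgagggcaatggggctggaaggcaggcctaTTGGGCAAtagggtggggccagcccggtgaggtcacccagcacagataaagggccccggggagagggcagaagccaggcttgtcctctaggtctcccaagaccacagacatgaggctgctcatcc
Mmp8 (chr9:7558179-7558478, plus strand): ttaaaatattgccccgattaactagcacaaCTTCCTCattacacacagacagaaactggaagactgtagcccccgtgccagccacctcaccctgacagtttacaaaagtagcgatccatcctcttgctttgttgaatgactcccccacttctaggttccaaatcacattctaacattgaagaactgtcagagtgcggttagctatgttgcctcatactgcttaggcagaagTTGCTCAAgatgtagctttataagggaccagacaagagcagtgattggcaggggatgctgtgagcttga
Retnlg (chr16:48872358-48872657, plus strand): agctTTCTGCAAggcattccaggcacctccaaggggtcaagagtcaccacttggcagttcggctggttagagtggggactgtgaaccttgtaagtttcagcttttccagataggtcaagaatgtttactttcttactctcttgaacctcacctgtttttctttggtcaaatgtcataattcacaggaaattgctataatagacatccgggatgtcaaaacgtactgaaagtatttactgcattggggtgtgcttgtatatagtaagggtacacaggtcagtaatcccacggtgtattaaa
The C/EBP letters were present in 7 of the 9 windows, against 10.8% of all 32851 windows in the table, and were matched more than once in Fcnb and Ngp. In Ltf the match began at position -75 from the start of the gene, in Mmp8 at -19 and in Ngp at -138 and -11. Camp held none of the motifs searched, which says only that these letters are not in this window. The PU.1 letters were found in 3 of the 9 windows (Lcn2, Mmp8 and S100a8) and in 13.6% of all windows. The AP-1 letters TGACTCA were found in 0 of the 9 and in 5.20% of all. These are matches of letters and not binding sites.

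Among the early members, the genes fell into different orders over the groups. Camp encodes the precursor of the cathelicidin antimicrobial peptide CRAMP. Its signal was 9.94, 10.32 and 10.13 on the MDSC arrays, 8.81, 8.79 and 8.73 on RB, 6.50, 6.10 and 6.47 on GFW, 6.83, 6.56 and 5.96 on GFK and 5.16, 5.19 and 4.69 on GFE. The MDSC arrays were highest and the RB arrays next, with no overlap between them or with the other groups, whereas GFK and GFW overlapped. MDSC exceeded RB by 1.35 log2 (SE 0.20, adjusted p = 2.77e-05), RB exceeded GFK by 2.33 (adjusted p = 1.06e-07) and GFW exceeded GFE by 1.34 (adjusted p = 1.81e-05), while GFK and GFW did not pass (0.10, adjusted p = 0.912). The GFE level was near background (percentile 32.1), so its distance to the others is a lower bound. In bulk samples like these, fewer cells of a type and less RNA per cell cannot be told apart.

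Ltf encodes lactoferrin, the iron-binding protein of secondary granules. Its signal was 11.09, 11.30 and 11.22 on MDSC, 8.26, 8.07 and 8.66 on RB, 8.46, 8.28 and 8.45 on GFW, 8.52, 8.52 and 8.51 on GFK and 5.42, 5.64 and 5.35 on GFE. Here MDSC stood alone at the top and GFE alone at the bottom, and the 3 groups of freshly sorted spleen cells lay close together. MDSC was 2.68 log2 above GFK, the next group (SE 0.13, adjusted p = 1.34e-10), and GFE was 2.86 below RB (adjusted p = 5.25e-11). The steps from GFK to GFW (0.12, adjusted p = 0.818) and from GFW to RB (0.07, adjusted p = 0.688) did not pass, and the latter changed sign without RB replicate 2 (RB minus GFW 0.06, adjusted p = 0.737).

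Ngp encodes neutrophilic granule protein, a relative of the cathelicidins and cystatins. It read 10.85, 11.07 and 11.01 on MDSC, 8.63, 8.77 and 9.02 on RB, 10.02, 9.83 and 10.09 on GFW, 10.36, 10.16 and 10.30 on GFK and 5.84, 5.69 and 5.04 on GFE. MDSC was again highest, but RB lay below GFW, the reverse of Camp. MDSC exceeded GFK by 0.71 log2 (SE 0.17, adjusted p = 0.00211), GFW exceeded RB by 1.17 (adjusted p = 3.60e-05), and RB exceeded GFE by 3.28 (adjusted p = 1.70e-10). The step from GFK to GFW (0.29) did not pass (adjusted p = 0.552), although every GFK array lay above every GFW array.

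Fcnb encodes ficolin B, a lectin of the complement system made by immature myeloid cells in the mouse. It followed the order of Camp at a smaller range. The arrays read 7.29, 7.36 and 7.76 for MDSC and 7.54, 6.89 and 6.93 for RB, and between 5.06 and 5.89 for the 9 arrays of GFW, GFK and GFE. GFW (percentile 39.1) and GFE (35.3) were near background and GFK (40.3) just above it, so no order among the low groups is read. RB exceeded GFW by at least 1.61 log2 (adjusted p = 6.14e-06), and MDSC exceeded GFW by at least 1.96 (SE 0.20, adjusted p = 3.26e-07). MDSC and RB overlapped (0.35, adjusted p = 0.161), and without RB replicate 1 that step passed (0.56, adjusted p = 0.0257).

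Lcn2 encodes lipocalin 2, which binds the iron carriers of bacteria. Unlike the other early members, it did not have its highest mean on MDSC. It read 11.76, 11.61 and 11.65 on MDSC, 10.27, 10.12 and 9.19 on RB, 11.89, 11.94 and 12.04 on GFW, 12.01, 11.93 and 12.01 on GFK and 10.33, 10.51 and 10.39 on GFE. GFK, GFW and MDSC were highest, GFE and RB lay below them. MDSC exceeded GFE by 1.27 log2 (SE 0.20, adjusted p = 7.88e-05). RB minus GFE was -0.55 (adjusted p = 0.0266), but RB replicate 3 lay 0.93 log2 below the nearest RB array, and without it the difference was -0.21 and not called (adjusted p = 0.109). That call was also lost without GFE replicate 2 (adjusted p = 0.0819) or GFE replicate 3 (adjusted p = 0.0548). On GFE the Lcn2 probe set was not near background (percentile 97.2), whereas those of Camp and Fcnb were. As probe sets are not compared in level, this does not rank the RNA of these genes.

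**Figure D1:**
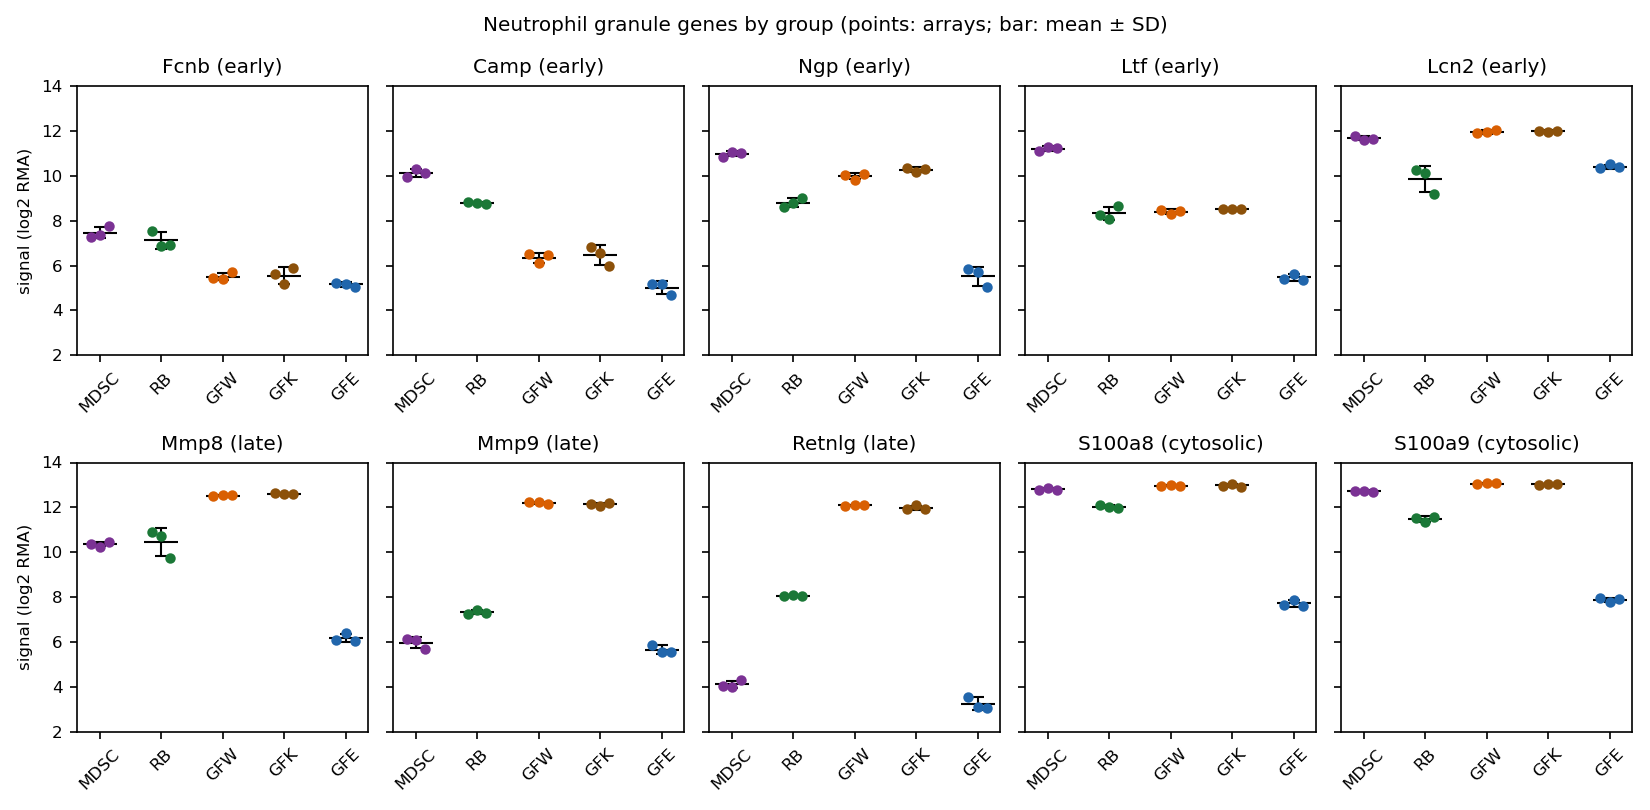
Log2 RMA signal of the 10 members in each group. Points are arrays (3 per group) and bars the mean ± SD. The early members Camp, Ngp and Ltf peak on the MDSC arrays, the late members Mmp8, Mmp9 and Retnlg on GFW and GFK, and on GFE all but Lcn2 and the S100 genes lie at 6.40 or below.

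The late members were highest on the GFW and GFK arrays. Mmp8 encodes neutrophil collagenase. It read 12.49, 12.55 and 12.54 on GFW, 12.64, 12.61 and 12.60 on GFK, 10.91, 10.73 and 9.74 on RB, 10.37, 10.25 and 10.45 on MDSC and 6.09, 6.40 and 6.06 on GFE. RB and MDSC shared an intermediate level, 2.07 log2 below GFW in RB (SE 0.21, adjusted p = 9.44e-07), and GFE lay 4.18 below MDSC (adjusted p = 2.27e-10). MDSC minus RB was -0.10 (adjusted p = 0.729). It was called at -0.46 without RB replicate 3, the lowest RB array (adjusted p = 0.00543), and changed sign to 0.12 without RB replicate 1 and 0.03 without RB replicate 2, neither called (adjusted p = 0.658 and 0.918).

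Mmp9 encodes gelatinase B, the defining enzyme of tertiary granules. Its signal was 12.22, 12.22 and 12.15 on GFW, 12.15, 12.06 and 12.20 on GFK, 7.24, 7.44 and 7.31 on RB, 6.13, 6.09 and 5.71 on MDSC and 5.87, 5.56 and 5.57 on GFE. GFW and GFK stood far above the rest, and the MDSC arrays, which were highest for Camp and Ltf, lay at the level of GFE. RB was 4.81 log2 below GFK (SE 0.13, adjusted p = 2.14e-13) and MDSC 1.36 below RB (adjusted p = 1.97e-07). MDSC and GFE did not pass (0.31, adjusted p = 0.0674). That step was called without MDSC replicate 3 (0.44, adjusted p = 0.0112), without GFE replicate 1 (0.41, adjusted p = 0.0269) and with each array minus the median of the genes tested (0.36, adjusted p = 0.0352).

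Retnlg encodes resistin-like gamma, a secreted protein of mature mouse neutrophils, and had the widest range of signals among the 10 members. It read 12.07, 12.09 and 12.09 on GFW, 11.93, 12.09 and 11.92 on GFK, 8.05, 8.10 and 8.07 on RB, 4.05, 3.99 and 4.30 on MDSC and 3.57, 3.09 and 3.06 on GFE. The GFW arrays differed among themselves by 0.02 log2, RB lay midway, and MDSC (percentile 14.6) and GFE (3.29) were near background. RB was 3.91 log2 below GFK (SE 0.13, adjusted p = 3.30e-12) and at least 3.96 above MDSC (adjusted p = 1.76e-12). The GFW mean was at least 459.6-fold above GFE and at least 250.5-fold above MDSC. The step from MDSC to GFE is between levels near background and is not read.

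S100a8 and S100a9 encode the calcium- and zinc-binding proteins that make up calprotectin, the most abundant cytosolic protein of neutrophils and also a product of classical monocytes. S100a8 read 12.97, 13.01 and 12.94 on GFW, 12.97, 13.04 and 12.93 on GFK, 12.76, 12.85 and 12.79 on MDSC, 12.10, 12.03 and 11.96 on RB and 7.67, 7.89 and 7.62 on GFE. S100a9 read 13.04, 13.07 and 13.08 on GFW, 13.01, 13.02 and 13.04 on GFK, 12.72, 12.75 and 12.69 on MDSC, 11.54, 11.35 and 11.58 on RB and 7.94, 7.80 and 7.90 on GFE. Below GFW and GFK the genes followed the same order, with RB below MDSC and GFE far below all. RB exceeded GFE by 4.30 log2 for S100a8 (SE 0.10, adjusted p = 1.97e-14) and by 3.61 for S100a9 (adjusted p = 7.12e-14). MDSC exceeded RB by 0.77 (adjusted p = 6.36e-06) and 1.23 (adjusted p = 1.74e-08). GFW exceeded MDSC by 0.17 for S100a8 (adjusted p = 0.135) and by 0.34 for S100a9 (adjusted p = 0.00459). The S100a9 call was lost with each array minus the median of all its probes (adjusted p = 0.0645), and S100a8 was called with each array minus the median of the genes tested (MDSC minus GFW -0.43, adjusted p = 8.30e-04). The highest value on any array was 14.07, so these 2 genes lie near the top of the scale, and whether their probes saturate is not known here.

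**Figure D2:**
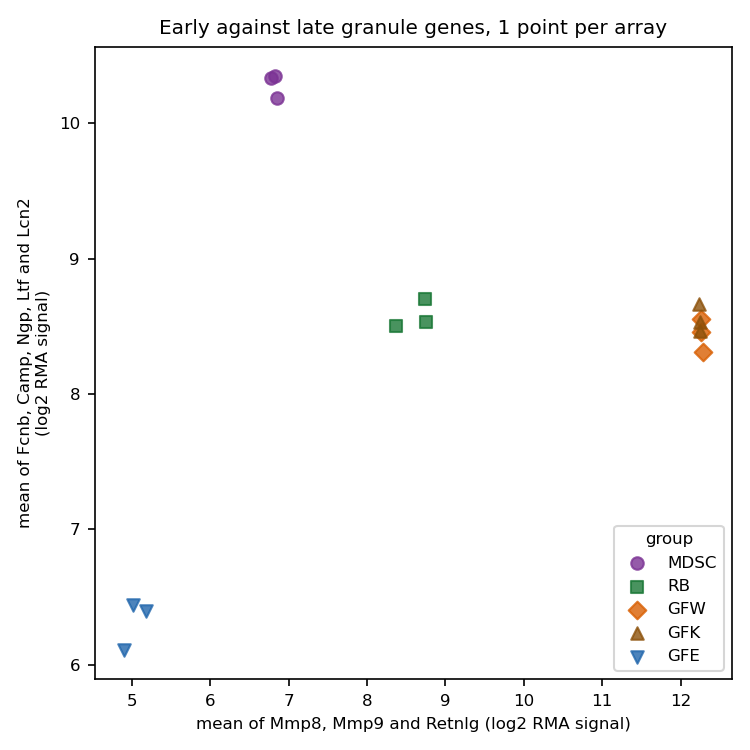
Mean log2 RMA signal of the 5 early members (vertical axis) against the mean of the 3 late members (horizontal axis), with 1 point per array. MDSC arrays combine early means of 10.19 to 10.35 with late means of 6.78 to 6.85, GFW and GFK arrays combine early means of 8.31 to 8.67 with late means of 12.24 to 12.29, RB arrays combine early means of 8.51 to 8.70 with late means of 8.37 to 8.76, and GFE arrays are low on both axes.

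The same values are given next by comparison, and early and late members did not part in all of them. In GFE minus GFW, 4 of the 5 early and all 3 late members were lower. RB and GFW carry the same labels but different title prefixes. Their comparison shows how far these 2 sets of arrays differ, and cells and prefix cannot be told apart in it. Of the members, 2 were called higher in RB, where 25.8% of all genes were, and 7 lower, where 26.5% of all were. Mmp9 was 29.2-fold lower in RB (-4.87 log2, SE 0.13, adjusted p = 2.01e-13), Retnlg 16.1-fold, Lcn2 4.27-fold, Mmp8 4.18-fold (SE 0.21), S100a9 2.98-fold, Ngp 2.26-fold and S100a8 1.92-fold. Camp was 5.37-fold higher in RB (2.42 log2, SE 0.20) and Fcnb at least 3.05-fold. The median over the 10 was -1.37 log2, against -0.06 over all genes. RB and GFW arrays overlapped for Ltf and for no other member. Over all genes, every RB array lay above every GFW array for 26.4% and below for 28.8%.

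Other granule genes and markers of other cells moved in RB as well. Of 17 tested genes of a list of other specific, gelatinase and secretory granule products, 3 rose and 13 fell (median -0.84), led by Lrg1 (-4.19), the metalloproteinase Mmp25 (-3.92), Wfdc21 (-3.06) and Chil3 (2.26). Of 10 primary granule genes 2 rose and 3 fell (median -0.40), led by Cd63 (-3.63) and Prss57 (-1.41). All 15 tested genes of a list of mature neutrophil surface and signalling genes fell in RB against GFW (median -1.96), led by Ly6g (-5.91), the chemokine receptor Cxcr2 (-4.80), the histamine-forming enzyme Hdc (-3.51) and Clec4d (-3.15). Of 15 monocyte markers, 12 rose and 1 fell (median 2.83), led by Fn1 (at least 6.75), F13a1 (6.06), Ace (4.71) and Vcan (at least 4.52). The mean monocyte level per array was 10.81 to 10.88 on RB and 8.14 to 8.19 on GFW, where Fn1 and Vcan were near background. Macrophage markers were split, with 5 of 13 higher and 4 lower (median 0.15). Progenitor markers showed 1 of 12 higher and 9 lower (median -0.72), led by the SCF receptor Kit (-5.92), and 6 of 7 B cell markers were lower. The part of these cells in the member differences was not tested.

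GFE was compared with GFW to ask what culture with SCF and Flt3 ligand does to granule transcripts. Of the members, 9 fell and 0 rose, where 31.9% of all genes fell and 35.1% rose. Retnlg was at least 459.6-fold lower (-8.84 log2, SE 0.13, adjusted p = 9.64e-17), Mmp9 92.6-fold (-6.53), Mmp8 81.2-fold (-6.34), S100a8 38.0-fold (-5.25) and S100a9 36.4-fold (-5.18). Among the early members, Ngp was 21.9-fold lower, Ltf 7.62-fold, Lcn2 2.92-fold and Camp at least 2.54-fold. Fcnb was near background in both groups (-0.35, adjusted p = 0.121). It was called where only these groups entered the fit (adjusted p = 0.0260) and with each array minus the median of the genes tested (-0.67, adjusted p = 0.00448). The median over the 10 was -4.82 log2, against -0.06 over all genes. These sizes hold against GFW and differed against RB, which has the same wild-type labels but another title prefix. RB minus GFE was 1.67 log2 for Mmp9, at least 4.83 for Retnlg and 4.28 for Mmp8. It was at least 3.77 for Camp, 3.28 for Ngp and 2.86 for Ltf. For Lcn2 it was -0.55, the opposite direction, a call that was lost without RB replicate 3.

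Genes of other maturation stages and markers of other cells were read in the same comparison. All 15 mature neutrophil genes tested fell (median -4.05), led by Ly6g (at least 7.97 log2 lower), Cxcr2 (-7.17), Il1r2 (at least 6.44 lower) and Fcgr4 (at least 5.94 lower). All 17 tested genes of the list of other granule products fell (median -3.73), led by haptoglobin (Hp, -7.06), Lrg1 (-6.38), Wfdc21 (-5.72) and the peptidoglycan-binding protein Pglyrp1 (-5.42). Primary granule genes were split, with 3 of 10 higher and 5 lower (median -0.63). Cathepsin G (Ctsg) was higher by 2.72 log2 (10.03 ± 0.05 against 7.31 ± 0.63, SD, n = 3), whereas Ctsc (-1.44) and the elastase gene Elane (-1.40) were lower. Myeloperoxidase (Mpo) did not pass (-0.38). Of 12 progenitor markers, 11 rose and 1 fell (median 2.79), led by Cd34 (4.10), Sox4 (4.06), Adgrl4 (4.06) and Erg (3.63). All 11 tested proliferation markers rose (median 2.06), led by Cdk1 (2.57). Of the monocyte markers 5 rose and 9 fell, led by Klf2 (-4.80) and Ly6c2 (-4.52), and of the macrophage markers 3 rose and 10 fell, led by C1qb (-2.90). The mean progenitor level per array was 9.44 to 9.53 on GFE and 6.77 to 6.87 on GFW, and its part in the fall of the members was not tested.

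GFK was compared with GFW to ask what differs in mobilised cells labelled as lacking iNOS. Of the 10 members, 0 were called higher and 0 lower, where 1.30% and 0.317% of all genes were. Those background counts, 192 higher and 47 lower, fell to 102 higher without GFK replicate 3 and 123 without GFW replicate 3. They fell to between 27 and 31 lower without any 1 of the GFK arrays, GFW replicate 2 or GFW replicate 3, and to 72 higher and 2 lower where only these groups entered the fit. At an unadjusted p under 0.05 the count was 0 of the 10 members and 1747 over all genes tested. Whether the members differ from all genes in this was not tested. Among the members the largest difference was that of Ngp (0.29 log2, 95% interval -0.07 to 0.65, adjusted p = 0.552). The narrowest interval was that of S100a9 (-0.24 to 0.16). The intervals of all 10 lay between -0.39 and 0.65, so differences up to about these sizes are not excluded. Every GFK array lay above every GFW array for Ngp, Ltf and Mmp8, and below for S100a9, which 8.26% and 7.91% of all genes did. Of the other granule genes, the NADPH oxidase subunit Cybb rose (0.68), 1 of 17, and of the mature neutrophil genes G0s2 (0.46), 1 of 15. Markers of other cells were higher on GFK, with 4 of 7 B cell markers called, led by Cd79a (1.58) and Ighm (1.30), although the gate removes B220+ cells. The mean B cell level per array was 8.27 to 8.51 on GFK and 7.46 to 7.67 on GFW. Of the macrophage markers 4 of 13 rose, led by Cd5l (1.66), and of the monocyte markers 4 of 15, led by Ace (0.88).

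**Figure D3:**
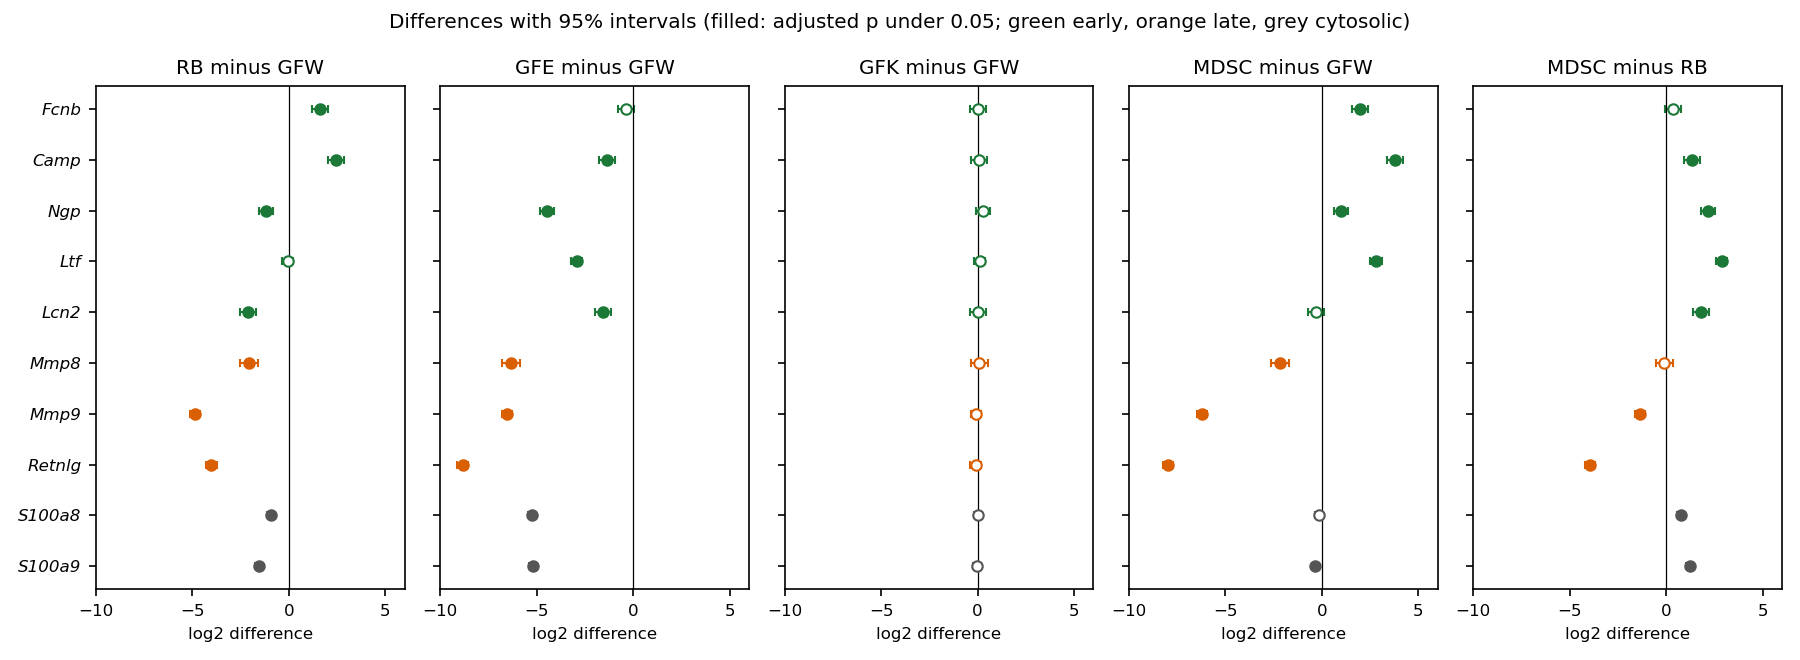
Log2 differences of the 10 members in 5 comparisons, with 95% intervals of limma's fit (horizontal axis). Filled points passed an adjusted p under 0.05. Green marks early, orange late and grey cytosolic members. For MDSC minus GFW the green points lie at or right of -0.28 and the orange ones at or left of -2.17, and for GFK minus GFW no point is filled.

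MDSC were compared with each mobilised set. Against GFW, 4 members were called higher and 4 lower, where 32.3% of all genes were higher and 30.0% lower. The 4 higher were early members: Camp was 13.7-fold higher (3.78 log2, SE 0.20, adjusted p = 1.78e-10), Ltf 6.97-fold (2.80), Fcnb at least 3.89-fold (1.96) and Ngp 1.996-fold (0.997). The late members were lower, Retnlg at least 250.5-fold (-7.97, SE 0.13), Mmp9 74.7-fold (-6.22) and Mmp8 4.49-fold (-2.17), as was S100a9 (-0.34). Lcn2 did not pass (-0.28, adjusted p = 0.215). It was called where only these groups entered the fit (adjusted p = 0.0354) and with each array minus the median of the genes tested (-0.54, adjusted p = 0.0153). The median over the 10 was -0.23, against -0.08 over all genes, and over the 5 early and 3 late members it was 1.96 and -6.22.

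Against RB, 6 members were higher in MDSC and 2 lower, where 27.4% and 20.7% of all genes were. Ltf was 7.32-fold higher (SE 0.13, adjusted p = 8.53e-11), Ngp 4.50-fold, Lcn2 3.51-fold, Camp 2.55-fold, S100a9 2.35-fold and S100a8 1.71-fold. Retnlg was at least 15.5-fold and Mmp9 2.56-fold lower. Markers of other cells moved in this comparison too. Of 15 monocyte markers 13 fell and 0 rose (median -3.73), led by Fn1 (-6.51), Ms4a4c (at least 6.32 lower), F13a1 (-5.99) and Nr4a1 (-5.40), and their mean per array was 7.46 to 7.57 on MDSC and 10.81 to 10.88 on RB. Of 12 progenitor markers 6 rose and 2 fell, led by Kit (3.44), and all 11 proliferation markers rose (median 2.25). Their part in the member differences was not tested. Against GFE, 9 of the 10 were higher and 0 lower, where 16.6% and 18.9% of all genes were, and Ltf (53.1-fold), Ngp (43.7-fold), Camp (at least 34.7-fold), S100a8 (33.7-fold), S100a9 (28.7-fold) and Mmp8 (18.1-fold) led. Lcn2 was 2.40-fold higher and Fcnb at least 4.97-fold. Retnlg is the remaining call, near background in both groups. The comparisons of MDSC share the MDSC arrays, and those with GFW share the GFW arrays.

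Primary granule genes were high in MDSC beside the early members. Against GFW 9 of 10 rose and 1 fell (median 2.13), led by Ms4a3 (5.11, at 11.32 ± 0.09 on MDSC and 6.21 ± 0.32 on GFW, SD, n = 3), Elane (4.46), Ctsg (4.21) and Mpo (3.52). Against RB 7 rose and 1 fell (median 3.48), again led by Ms4a3 (5.59). In contrast, 14 of 15 mature neutrophil genes fell and 0 rose against GFW (median -2.54), led by Il1b (-7.13), Ly6g (-6.39), Hdc (-5.01) and the G-CSF receptor Csf3r (-4.53). That list was split against RB, with 5 higher and 9 lower (median -0.52). Against GFE 11 were higher and 3 lower (median 1.65). All 11 proliferation markers rose against GFW (median 2.38), led by Cdk1 (3.30) and Rrm2 (3.17). Of the other granule genes 3 of 17 rose and 10 fell against GFW (median -0.70). Chil3, a chitinase-like protein, rose by 2.17, and Lrg1 (-4.00), Mmp25 (-3.36) and Slc11a1 (-3.14) fell. Against RB that list had 8 higher and 6 lower (median 0.19), with Slc11a1 (-3.08), Clec5a (2.66), Wfdc21 (2.66) and the granule glycoprotein Olfm4 (at least 2.49). Of 6 eosinophil, mast cell and basophil markers 5 rose against GFW, led by Prg2 (3.28), and 1, the eosinophil lectin Siglecf, fell (-2.97, adjusted p = 8.98e-11), and the eosinophil, mast cell and basophil mean per array was 6.89 to 7.15 on MDSC and 5.73 to 5.93 on GFW. Of 15 monocyte markers 4 rose and 8 fell, led by Vcan (at least 4.21) and Klf2 (-3.96). Of 13 macrophage markers 3 rose and 8 fell, led by the mannose receptor Mrc1 (3.60), and all 7 B cell markers fell. The part of such cells in the member differences was not tested.

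**Figure D4:**
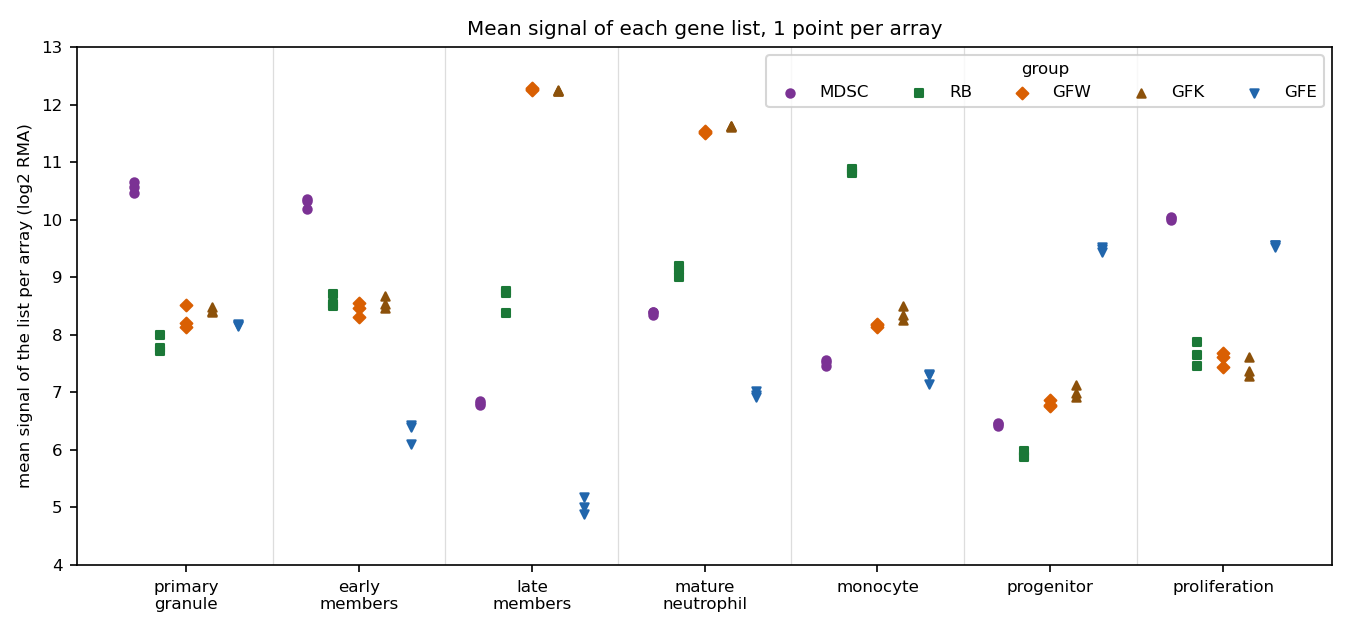
Mean log2 RMA signal per array of the early members, the late members and 5 other gene lists (horizontal axis), by group. On MDSC arrays the primary granule list (10.46 to 10.66) and the early members (10.19 to 10.35) are highest of all groups, on GFW and GFK the late members and the mature neutrophil list (11.50 to 11.63), on RB the monocyte markers and on GFE the progenitor markers.

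Transcription factors of granulopoiesis differed between the groups one by one. Cebpe stood at 9.67 ± 0.20 (SD, n = 3) on MDSC, 7.62 ± 0.41 on GFK and 7.54 ± 0.21 on GFW. It stood at 7.47 ± 0.47 on RB and 6.06 ± 0.39 on GFE. MDSC was thus highest and GFE lowest, as for Camp, Ltf and Ngp but not for Lcn2. MDSC exceeded GFW by 2.13 log2 (adjusted p = 1.52e-06), GFE was 1.48 below GFW (adjusted p = 6.73e-05), and RB minus GFW did not pass (-0.07). Ltf did not pass in RB minus GFW either (-0.07). Camp (2.42) and Fcnb (at least 1.61) were higher there, and Ngp (-1.17) and Lcn2 (-2.10) lower. Of 15 factors tested, 5 were higher and 7 lower in MDSC than in GFW (median 0.04), led by Cebpe, Cebpd (-1.80), Klf4 (1.77) and Myb (1.63). In GFE 4 were higher and 8 lower (median -0.53), led by Myb (3.67), Gata2 (2.42), Cebpb (-1.97) and the monocyte and dendritic cell factor Irf8 (-1.90). In RB 4 were higher and 6 lower (median -0.10), with Klf4 (2.37), Cebpd (-1.91), Myb (-1.75) and Irf8 (1.71) leading. In GFK 0 of 15 were called. Gfi1, a repressor needed for neutrophil formation, lay between 6.17 and 6.87 in all group means. It was called lower in RB than in GFW (-0.57, adjusted p = 9.94e-04) and higher in MDSC than in RB (0.70, adjusted p = 1.39e-04). MDSC minus GFW did not pass (0.13).

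The inhibitors and receptors of the secreted products were read from fixed lists. Of 7 protease inhibitors, made of metalloproteinase inhibitors and Serpinb1a, 4 passed the filter. Timp2, an inhibitor of gelatinases, stood at 9.29 ± 0.15 (SD, n = 3) on GFW, 8.80 ± 0.14 on MDSC, 7.67 ± 0.05 on RB and 5.87 ± 0.04 on GFE, and was lower than in GFW in each of the last 3 (-0.50, -1.62 and -3.42 log2, all called). Serpinb1a, which inhibits neutrophil serine proteases, rose in MDSC by 3.09, in GFE by 1.35 and in RB by 0.86. Of 10 receptor genes tested, 8 fell and 1 rose in GFE (median -1.52), led by Fpr2 (-6.31), a formyl peptide receptor that also binds cathelicidin, and Cd14 (-4.90). Tlr4, a receptor for calprotectin and lipopolysaccharide, stood at 9.15 ± 0.05 on GFW, 8.71 ± 0.05 on MDSC, 7.49 ± 0.07 on RB and 6.98 ± 0.30 on GFE. In RB 2 receptors rose and 6 fell (median -0.75), with Cd33 (-2.32), the endocytic receptor Lrp1 (2.23) and Fpr2 (-2.07) leading. In MDSC against GFW 1 rose and 7 fell (median -0.88), with Fpr2 (-3.57) and Cd14 (-3.54) leading.

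Across the 15 arrays the members fell into neighbouring patterns. Pearson's r was 0.991 between S100a8 and S100a9, 0.966 between Mmp9 and Retnlg, 0.949 between Fcnb and Camp and 0.908 between Ngp and Ltf, but -0.33 between Camp and Mmp9 and -0.44 between Fcnb and Mmp9. The pairs did not all follow the division into early and late members. Ngp had an r of 0.968 with S100a9, 0.963 with S100a8 and 0.854 with the late Mmp8. With the early Camp and Fcnb its r was only 0.630 and 0.482. Mmp8 had an r of 0.949 with S100a9 and 0.814 with Mmp9. Lcn2 had no r above 0.657 with any other member. These are descriptions, since arrays of a group share a cell population and the groups lie apart. Among 6135 other genes whose group means spanned at least 1 log2, the most alike were Txnip (0.998) and Hdc (0.993) for Mmp9, Hsd17b11 (0.996) and Slfn4 (0.994) for Retnlg, and Pilra (0.995) and Anxa1 (0.994) for Mmp8. For S100a8 they were Ccl6 (0.995) and Cd177 (0.995), and for S100a9 Mpp1 (0.992) and Cd177 (0.990). The early members had looser neighbours, Shtn1 (0.978) and Lmna (0.972) for Camp, Plekhg1 (0.976) and Scel (0.970) for Fcnb, Atp6v0d1 (0.974) and Ccl2 (0.973) for Ngp, and Bhlhe40 (0.966) and Neu1 (0.964) for Ltf. Lcn2 was most like Ctsd (0.981) and Atp6v0a1 (0.973).

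Camp, Ngp and Ltf lie in 1 stretch of chromosome 9 in the RefSeq table but are not adjacent. Between Camp and Ltf lie 28 other protein-coding genes, of which 21 were tested. In MDSC minus GFW, where all 3 members rose, 6 of these 21 were higher and 9 lower (median -0.22), from Tdgf1 (-1.71) to Cdc25a (3.08), a cell cycle phosphatase. In MDSC minus GFE 2 were higher and 3 lower (median 0.06), with the whole range from -0.75 to 0.52, while Camp differed by at least 5.12, Ngp by 5.45 and Ltf by 5.73. No protein-coding gene lies between S100a8 and S100a9, which are neighbours on chromosome 3. This look at the genes between members was chosen after the members' values were seen.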

How the data were processed

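RNA of 15 samples (5 groups of 3) had been hybridised to single-colour Affymetrix arrays. The deposited values are log2 signals which the authors made with oligo and RMA, per the submitters' processing notes, which name no version. RMA corrects background, normalizes between arrays by quantiles and summarises probes, so levels are relative and large differences are compressed. No detection call was used here. The number of arrays limits the precision.

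Of 41345 probe sets, 23521 carried 1 gene symbol, 1814 several and 16010 none, and only the first were named, giving 22180 genes. For a gene with more than 1 probe set, that with the highest mean signal was kept, and the mean of all was an alternative. A gene was tested if it lay above the 40th percentile of the probe sets with 1 symbol on an array (5.34 to 5.58). This had to hold on at least 3 arrays, which left 14822 genes. limma 3.58.1 (R 4.3.3) fitted a mean per group over all 15 arrays (10 residual and 5.33 prior degrees of freedom), with Benjamini-Hochberg adjustment over the 14822 genes and two-sided calls at an adjusted p under 0.05. Intervals are 95% and unadjusted. The fit was tested on simulated data. No 2 arrays held identical values. Tables and figures were made in Python 3.11.15.

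All 10 members are named. From each other list the called genes with the largest differences are named, and further genes only with their values. For likeness, the tested genes with the highest Pearson correlation are named, predicted gene models left out. The members and lists were chosen with earlier results of these data known. Promoter windows come from RefSeq (GRCm38.p6). Alternatives were other filters, array centring, a fit of only the groups compared, the mean of probe sets, a replicate block and leaving out each array. Cells of untreated mice were not analysed here.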

Additional observations from a re-analysis of the deposited data

How the results depend on the processing

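Of 852 values of single members under the alternatives, 827 kept their direction and their side of the threshold, 10 became called, 4 lost their call (3 of them Lcn2 in RB minus GFE) and 11 changed sign. Leaving out arrays in the steps RB minus GFE, RB minus GFK and MDSC minus GFK was added after seeing the data. None of the 11 was called in either setting, and the cause was not tested. With 1 array left out, GFK minus GFW ran from -0.122 to 0.239 for Fcnb, from -0.0956 to 0.342 for Camp, from -0.0040 to 0.0683 for Lcn2 and from -0.0234 to 0.0326 for S100a8. RB minus GFW ran from -0.233 to 0.0592 for Ltf, and MDSC minus RB from -0.461 (called, without RB replicate 3) to 0.123 for Mmp8. Over all genes, GFK minus GFW gave 192 higher and 47 lower, and 72 and 2 where only these groups entered the fit. It gave 30 lower with no filter and 29 with each array minus its median. Leaving out 1 array gave 102 to 150 higher and 27 to 42 lower. With each array minus the median of the genes tested, a setting chosen after seeing the data, 7694 genes were lower in GFE than in GFW and 7401 in MDSC. That setting moved the median of all genes from -0.06 to -0.38 for GFE minus GFW, from -0.08 to -0.34 for MDSC minus GFW and from -0.06 to -0.20 for RB minus GFW, and with each array minus its median the first of these was 0.07. With any 1 array left out, the counts of members called were 2 higher and 7 lower for RB minus GFW, 9 lower for GFE minus GFW, 0 for GFK minus GFW and 4 each way for MDSC minus GFW. They ran from 6 to 7 higher and 2 to 3 lower for MDSC minus RB, and from 9 to 10 higher for MDSC minus GFE. The replicate numbers do not pair the samples (correlations of deviations between -0.0910 and 0.0431), and with the replicate block GFK minus GFW gave 160 higher and 42 lower over all genes, RB minus GFW 2 and 7 of the members, and no call of a member changed. Values near background set only bounds for Retnlg, Camp and Fcnb.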
